A study of Homo sapiens with 15 samples.

Results

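The genes described here, called members below, are the protein-coding ZNF zinc finger genes of chromosomes 1 to 18 and 20 to 22. They were taken from GENCODE on GRCh37 by a symbol made of ZNF, a number and at most 1 letter. There were 250 such genes of 508 protein-coding ZNF genes, with 246 on chromosome 19 and 12 on X or Y, among 19802 protein-coding genes in all. ZNF proteins form one of the largest families of DNA-binding proteins in the human genome. Most carry C2H2 fingers, short loops held by a zinc ion that read DNA in tandem. Many also carry a KRAB domain at the amino end, which recruits TRIM28 and through it SETDB1 and HP1 proteins to silence the bound locus. On chromosome 19 these genes lie in long tandem clusters, and elsewhere they are spread singly or in short groups.

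The measurement was chromatin immunoprecipitation and sequencing with BG4, an antibody to DNA G-quadruplexes. A G-quadruplex (G4) is a 4-stranded fold in which runs of guanine stack as planar quartets. In cells BG4 signal is known mainly from open, GC-rich promoters. The cells were K562, an established human leukaemia line with an abnormal chromosome number, grown without treatment and unsynchronised, fixed with formaldehyde and sonicated. There were 5 BG4 libraries: 2 technical libraries of the first biological replicate (1a and 1c) and 3 of the second (2a, 2b and 2c). The 2 K562 input libraries, and 8 bisulfite libraries of the HaCaT keratinocyte line (4 control and 4 treated with entinostat, a histone deacetylase inhibitor), were not analysed here.

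Each BG4 library had its own peak list, of 8044 (2a) to 12484 (1a) peaks, and a list of 8940 high-confidence regions outside the mitochondrial genome covered all 5 libraries. These regions were the same stretches as those covered by peaks of at least 3 of the 5 lists. A gene was counted as having a region when one lay within 1 kb of any start site of its protein-coding transcripts. The lists hold no read counts, so the depth behind a peak is unknown, and a promoter with no peak is one where no signal was called at an unknown depth. Copy number and gene expression were not measured. Peak names inside lists 2a and 2c carry each other's letter. An exchange of these 2 technical libraries would change neither a count over the 5 lists nor a mean of the second replicate. It would exchange every value given here by letter for 2a and 2c, and the results of leaving out either of them.

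The sequences under the strongest member regions show what the antibody peaks held. The first set is of canonical G4 motifs, defined as 4 tracts of 3 or more G joined by loops 1 to 7 bases long, found inside regions that were present in all 5 libraries (5′ to 3′ on the G-rich strand, GRCh37, with the 4 runs of each match in capitals).
ZNF48 (chr16:30389668-30389697, + strand): GGGGGGcgctGGGcagtgtGGGGcgcGGGG
ZNF131 (chr5:43121689-43121711, + strand): GGGGcGGGGGagaagaGGGaGGG
ZNF664 (chr12:124457475-124457492, + strand): GGGGaaGGGaGGGtcGGG
ZNF664 (chr12:124457646-124457668, + strand): GGGccGGGGctGGGGGGcGGGGG
ZNF775 (chr7:150076377-150076399, - strand): GGGGcaggcGGGGcGGGcacGGG
ZNF217 (chr20:52210926-52210947, - strand): GGGcgctGGGGcGGGGccGGGG
ZNF367 (chr9:99181031-99181049, + strand): GGGGcGGGGtcGGGGgGGG
The ZNF48 and ZNF131 motifs lay in exons and the others outside exons. ZNF664 had 6 motifs in a single region of 537 bp, the most of any member region, and all 6 had their G runs on the strand of the gene. At ZNF775, and in the ZNF367 motif shown, the G runs lay on the other strand.

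The second set shows promoters where the same motif was present and no library had a peak. They come from the 6 members with a CpG island, no peak in any library and the most motifs within 1 kb of a start site.
ZNF467 (chr7:149470574-149470593, + strand): GGGGGaGGGGaGGGGaGGGG
ZNF618 (chr9:116638466-116638487, + strand): GGGccGGGGGtGGGGGcgaGGG
ZNF710 (chr15:90545608-90545633, + strand): GGGGGcgtGGGGGtGGGGGtggcGGG
ZNF423 (chr16:49890104-49890126, - strand): GGGtGGGGGaGGGaaggaGGGGG
ZNF469 (chr16:88449473-88449494, - strand): GGGGcGGGGtGGGaggagaGGG
ZNF467 had 24 motifs in its windows, ZNF516 had 16, ZNF423 had 13, ZNF710 had 12, ZNF618 had 10 and ZNF469 had 9. Their GC content around the main start site ran from 57.3% (ZNF710) to 82.6% (ZNF516 and ZNF618), against a median of 65.9% for all 250 members. Choosing these 6 by motif number favours a high GC content. The ZNF467 and ZNF469 motifs shown lay in exons and the other 3 outside exons. The ZNF467 motif has 3 loops of 1 base each, and the loops of the ZNF131 motif are of 1, 6 and 1 bases.

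The third set shows the opposite case, a region in all 5 libraries with no canonical motif. ZNF10 and ZNF891 start on opposite strands and share a region (chr12:133706805-133707228). The stretch of 300 bases between their first start sites is given below on the + strand, which is the strand of ZNF10, with every run of at least 3 G or 3 C in capitals.
ZNF10 and ZNF891 (chr12:133706861-133707160): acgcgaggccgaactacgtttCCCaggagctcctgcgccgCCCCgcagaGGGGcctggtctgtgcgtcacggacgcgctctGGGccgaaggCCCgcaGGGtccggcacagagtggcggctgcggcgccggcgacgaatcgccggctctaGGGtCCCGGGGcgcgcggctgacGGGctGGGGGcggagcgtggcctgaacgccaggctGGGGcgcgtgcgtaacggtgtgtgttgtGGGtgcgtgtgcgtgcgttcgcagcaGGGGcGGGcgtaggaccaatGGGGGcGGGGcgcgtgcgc
It has a GC content of 74.7%, 44 CpG, 13 runs of G and 4 runs of C, but no 4 runs of G close enough together for the motif. ZNF398 and ZNF425 share a region in the same way (chr7:148823260-148823546), and the 91 bases between their first start sites hold 4 runs of G and 2 of C at a GC content of 76.9%.
ZNF398 and ZNF425 (chr7:148823417-148823507, + strand): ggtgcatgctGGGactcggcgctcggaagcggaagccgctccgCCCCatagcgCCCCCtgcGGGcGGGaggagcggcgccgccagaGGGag
Neither of these 2 regions held a canonical motif.

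Of the 250 members, 114 had a high-confidence region at a promoter (45.6%, 95% Wilson interval 39.5 to 51.8). The share over all protein-coding genes was 34.9%, and over those of the same chromosomes 35.2%. A region with peaks in all 5 libraries was present at 81 members (32.4%, 26.9 to 38.4), beside 22.3% of all protein-coding genes. No peak in any library was found at 80 members (32.0%, 26.5 to 38.0), beside 52.3% of all genes. The ZNF genes of chromosome 19 had a region in 69 of 246 cases (28.0%, 22.8 to 34.0), and their interval does not overlap that of the members. Genes of a family share ancestry and sequence and are not replicates, so these shares and intervals are descriptions and no test was made over genes; the intervals cover counting error only.

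Promoter composition moved with these shares. A strict CpG island (a window of 500 bp with a GC fraction of at least 0.55 and a ratio of observed to expected CpG of at least 0.65) lay within 1 kb of a start site at 225 members (90.0%), against 75.5% of all protein-coding genes. Among genes with such an island, 110 of 225 members had a region (48.9%, 42.4 to 55.4), beside 45.4% of all genes with one. Within this class the members' interval includes the share of all genes. It lies above that share under a pair of the alternatives run: with at least 2 of 5 libraries (61.8%, 55.3 to 67.9, beside 52.6%) and with a looser definition of the island (46.9%, 40.7 to 53.2, beside 40.4%). The chromosome 19 ZNF genes of this class had a region in 29.6% of 226 cases (24.1 to 35.9), with a median promoter GC of 60.9% over all chromosome 19 ZNF genes against 65.9% over the members. Without a strict island 4 of 25 members had a region, beside 2.45% of such genes in all. These 4 were ZNF107, ZNF138 and ZNF273, neighbours on chromosome 7, and ZNF484 on chromosome 9, named after their values were seen.

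GC content within 250 bp of the main start site divided the members further. None of the 14 members under 50% GC had a region, which allows a share of up to 21.5% (Wilson). A region was present at 16 of 51 members of 50 to 60% GC (31.4%, 20.3 to 45.0), beside 16% of all genes in that range. It was present at 44.9% of 107 members of 60 to 70% GC and at 64.1% of 78 members at 70% or above (53.0 to 73.9), beside 43.5% and 51.8% of all genes. The members without a region had a median GC of 63.0% and those with one 68.9%. Regions were also more frequent at members with more annotated start sites, from 10 of 44 members with 1 start site (22.7%) to 61 of 114 with 4 or more (53.5%), as in all genes (19.3% and 45.9%); the window searched grows with the number of start sites.

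**Figure D1:**
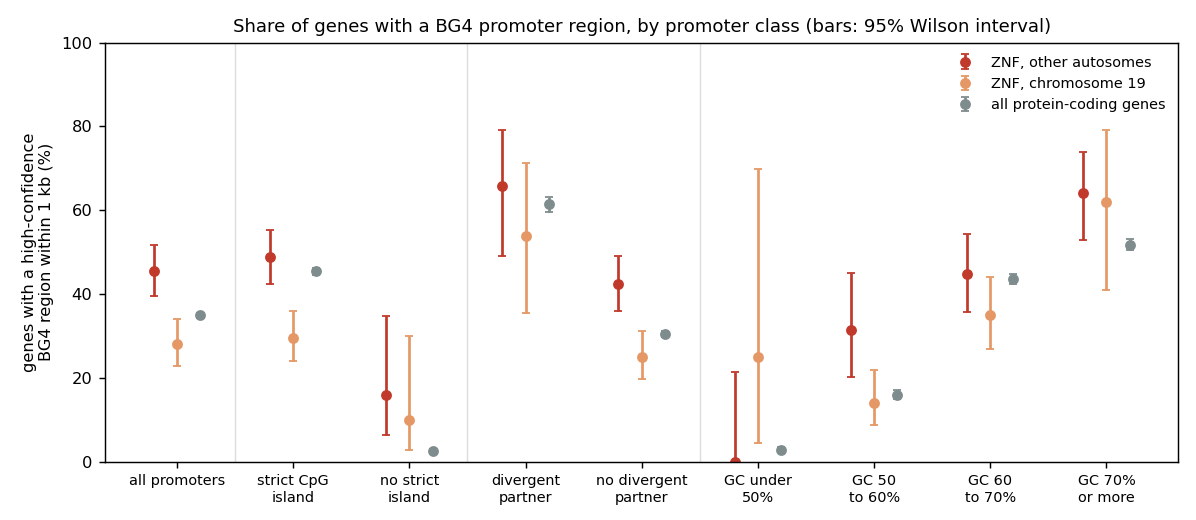
Share of genes with a high-confidence BG4 region within 1 kb of a start site (vertical axis, %), for the 250 ZNF genes of the other autosomes, the 246 of chromosome 19 and all 19802 protein-coding genes, by promoter class (horizontal axis). Points are shares and bars 95% Wilson intervals; the members stand at 45.6% over all promoters and at 48.9% among those with a strict CpG island, where all genes stand at 45.4%.

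A canonical G4 motif somewhere in the window went with a small difference among the members. At least 1 motif was present at 172 members (68.8%), of which 82 had a region (47.7%, 40.3 to 55.1). Of the 78 members with no motif in the window, 32 had a region (41.0%, 30.8 to 52.1). Over all genes the same shares were 40.7% and 18.6%. The median number of motifs was 1 both at members with a region and at members without one.

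The share of members with a promoter peak was read in each library. A promoter peak was called at 136 of 250 members from library 1a (54.4%). Library 1c had one at 109 (43.6%), 2a at 111 (44.4%), 2b at 120 (48.0%) and 2c at 142 (56.8%). The highest shares were in 1a, 2c and 2b and the lowest in 1c and 2a, so high and low libraries occurred in both biological replicates. With technical libraries averaged first the share was 49.4% ± 0.519 (SD, n = 2), with 49.0% in the first replicate and 49.7% in the second. An exact permutation test over the 10 ways to divide 5 libraries into 2 and 3 gave a two-sided p of 0.900, and 0.100 is the smallest p it can give. Libraries of 1 replicate are technical, so this p sets the replicates against technical spread. Over all protein-coding genes the same mean was 35.6% ± 0.0756 (SD, n = 2), and the members' share was above that of all genes in each of the 5 libraries.

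Most members were either called throughout or not at all, a division also seen over all protein-coding genes. A region in all 5 libraries was present at 32.4% of members and 22.3% of all genes. No peak in any library was found at 32.0% and 52.3%. A promoter peak was present in all 5 libraries at 84 members and in none at 80, while 23 had one in 1 library, 30 in 2, 17 in 3 and 16 in 4. Of the 117 members with a peak in 3 or more libraries, 114 had a region; at the other 3, ZNF133, ZNF200 and ZNF22, the peaks of different libraries did not lie over one another in 3 lists. ZNF22 was named after its values were seen. The median fold enrichment of member peaks, as the authors' peak lists give it, was 6.75, 6.40, 6.58, 6.29 and 6.03 (1a, 1c, 2a, 2b and 2c in turn), beside 6.78, 6.50, 6.74, 6.25 and 6.03 for all peaks of those lists.

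**Figure D2:**
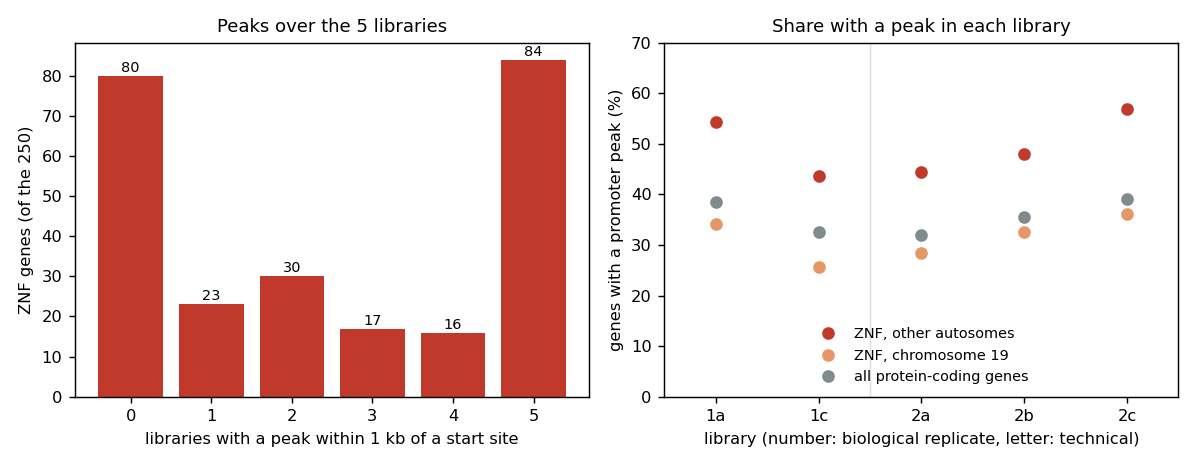
Left, number of the 250 ZNF genes (vertical axis) by the number of libraries with a peak within 1 kb of a start site (horizontal axis); the ends hold most genes, 80 with no library and 84 with all 5. Right, share of genes with a promoter peak (vertical axis, %) in each library (horizontal axis) for 3 groups of genes; the members run from 43.6% in 1c to 56.8% in 2c and lie above all protein-coding genes in each library.

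The 20 strongest members were those whose lowest percentile of fold enrichment over the 5 lists was highest; a fold ranks peaks within its own list. ZNF7, a KRAB protein gene on chromosome 8, led with folds of 21.9, 18.0, 16.7, 16.8 and 14.2 (1a, 1c, 2a, 2b and 2c in turn), at the 99.6th percentile or above in each list. Its region (chr8:146052556-146052991) covered a start site and held 2 motifs on the strand opposite to the gene. ZNF48 followed with 17.6, 15.2, 13.2, 10.9 and 11.9 in the same order (chr16:30389489-30389832). The region that ZNF10 shares with ZNF891 had folds of 13.5, 13.0, 12.4, 14.1 and 10.6, a narrower spread over the libraries. ZNF10, also called KOX1, is the protein whose KRAB domain is widely used as a repressor fused to other DNA-binding proteins.

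Next came ZNF251 (folds from 9.47 to 12), a neighbour of ZNF7, and ZNF706 (9.30 to 13.3), which encodes a protein of 76 residues. ZNF131, a factor with a BTB domain, had folds from 8.74 to 12. The ZNF664 region (chr12:124457298-124457834), some of whose motifs are printed above, also lay at a start site of CCDC92 and had folds of 14.4, 8.53, 11.1, 10.4 and 13.0 (1a, 1c, 2a, 2b and 2c in turn). ZNF326, part of a complex that couples RNA polymerase II to messenger RNA processing, had 8.52 to 11.6. Of the 20 genes, 17 had a region that covered a start site. The exceptions were ZNF395, whose region lay 652 bp downstream of a start site in an intron, ZNF367, 318 bp upstream, and ZNF217, 570 bp upstream of its nearest start site and in an annotated intron.

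ZNF217, a partner of the CtBP and CoREST corepressors that is amplified in some breast cancers, had folds of 16.8, 9.30, 10.9, 11.9 and 7.30 (1a, 1c, 2a, 2b and 2c in turn). It had a second, weaker region in all 5 libraries (chr20:52225005-52225230, folds from 5.04 to 5.76). ZNF143, an activator that binds many promoters together with THAP11, had 8.40, 8.19, 8.32 and 8.30 in the first 4 libraries and 6.50 in 2c. In 13 of the 20 the highest fold was that of library 1a and in 7 the lowest was that of 2c. The median fold over all peaks was likewise highest in 1a (6.78) and lowest in 2c (6.03). The 20 genes used 19 distinct regions, with GC contents from 60.8% (ZNF143) to 82.5% (ZNF664). A canonical motif was present in the regions of 8 (ZNF7, ZNF48, ZNF131, ZNF664, ZNF395, ZNF775, ZNF217 and ZNF367) and absent from those of the other 12. The latter include ZNF740 (folds from 7.90 in 2a to 15.9 in 1a), ZNF500 (7.09 in 2a to 16.2 in 1a), ZNF354B (6.79 in 2c to 8.99 in 2a) and ZNF862 (8.07 in 1c to 10.0 in 1a). Of those with a motif, ZNF775 ran from 7.32 in 2c to 15.7 in 1a. ZNF367, a factor described in erythroid cells, ran from 6.64 in 2b to 12.3 in 2a. ZNF395, known as a binder of the huntingtin gene promoter, had 8.73, 8.73, 8.40 and 8.54 in the first 4 libraries and 11.1 in 2c.

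**Figure D3:**
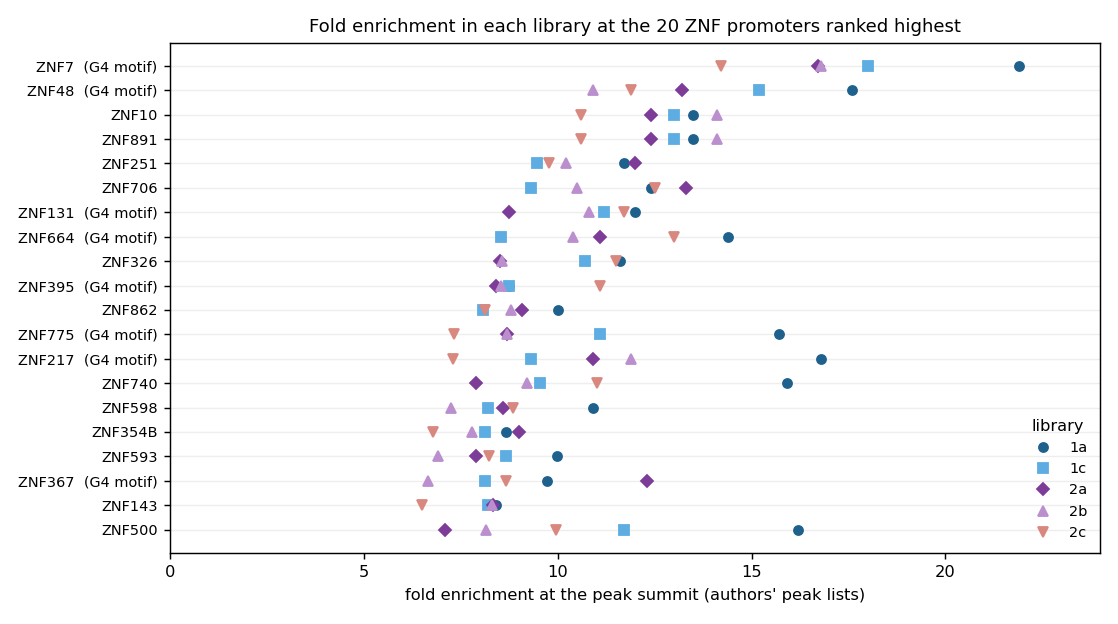
Fold enrichment at the peak summit (horizontal axis) in each of the 5 libraries (symbols) for the 20 ZNF promoters whose lowest percentile was highest, in that order from the top. Folds run from 6.50 (ZNF143, library 2c) to 21.9 (ZNF7, library 1a), and 8 of the 20 regions are marked as holding a G4 motif.

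At the other end were regions supported by exactly 3 libraries. The 4 with the lowest best percentile were ZNF280D, ZNF239, ZNF644 and ZNF485. ZNF485 had folds of 5.12 in 1a, 5.30 in 2a and 6.03 in 2c and no peak in 1c and 2b. ZNF644, a partner of the G9a and GLP histone methyltransferases, had 5.40 in 1a, 5.92 in 2a and 5.89 in 2c and no peak in the same 2 libraries. ZNF239 had 5.98 in 1a, 6.24 in 1c and 4.20 in 2c. ZNF280D had 2 such regions side by side, with 5.96 in 1c and 5.67 in 2c at both, 3.94 in 2a at one and 4.86 in 1a at the other. The other 3 regions were 68 bp wide at ZNF239, 105 bp at ZNF644 and 119 bp at ZNF485. The median was 117 bp over members whose best region was in 3 libraries and 215 bp over all member regions; a region is the stretch that at least 3 lists share.

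Members were then read by role, beside the 34.9% of all genes with a region. Every gene of the role lists below had a strict CpG island, the class in which 45.4% of all genes had a region, except for 3 of the 17 in the tissue-restricted list. Of 10 promoter-binding factors, 6 had a region, 5 of them in all 5 libraries, and none lacked a peak in every library. Besides ZNF143 and ZNF740 these were ZNF76 (the close relative of ZNF143, folds from 5.93 to 11.9), ZNF281 (a binder of GC-rich sites, 5.16 to 9.30), ZNF341 (an activator of STAT3, 5.89 to 8.54) and ZNF263. ZNF263, which binds G-rich repeats, had 8.03 in 1a, 7.49 in 1c, 8.96 in 2b and 5.80 in 2c and no peak in 2a at the better supported of its 2 regions. ZNF148, ZNF384, ZNF202 and ZNF24 each had a peak in 2 libraries and no region.

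Of 15 members whose proteins act on RNA, ribosomes, SUMO or the spindle, 11 had a region (73.3%, 48.0 to 89.1). ZNF598, the ubiquitin ligase that senses collided ribosomes, had folds of 10.9, 8.19, 8.58, 7.25 and 8.84 in 1a, 1c, 2a, 2b and 2c, and ZNF593, which takes part in making the large ribosomal subunit, had 9.98, 8.65, 7.88, 6.90 and 8.23. ZNF318 had a wider range, from 15.4 in 1a to 6.25 in 2c. ZNF207 (BuGZ), which binds spindle microtubules, had a region in 3 libraries, shared with C17orf75, and ZNF451, a SUMO ligase, one in 4. No peak was found at ZNF330, ZNF106 or ZNF830, and ZNF622 had one in 2 libraries.

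Of 14 partners of corepressors and histone enzymes, 7 had a region. Besides ZNF217, ZNF131 and ZNF644 these were ZNF512 (folds from 6.58 to 14.1), ZNF335 (a component of histone H3 methyltransferase complexes, 5.38 to 11.4 at the stronger of its 2 regions), ZNF687 (4.85 to 8.96) and ZNF410. ZNF410, known as an activator of the chromatin remodeller gene CHD4, had folds from 3.70 in 1c to 9.19 in 1a. No peak was found at ZNF516, ZNF532, ZNF512B and ZNF827. Of 7 well-studied KRAB factors, ZNF10, ZNF140 and ZNF445 had a region. ZNF445, a factor that keeps methylation at imprinted loci, had folds of 6 in 1a, 6.36 in 2a, 4.14 in 2b and 5.01 in 2c and no peak in 1c. ZNF141, ZNF267 and ZNF268 had no peak in any library.

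Of 15 members listed for a SCAN dimerisation domain, 9 had a region, 6 of them in all 5 libraries. Those 6 were ZNF500, ZNF174, ZNF18, ZNF213, ZNF397 and ZNF394. The list was fixed by symbol without a search for the domain, so it need not hold every SCAN member. ZNF394 was the only member with 3 separate regions, 2 of them shared with ZKSCAN5. ZNF24, ZNF202 and ZNF263 were in both this list and that of promoter-binding factors.

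The members of tissue-restricted and developmental role had the lowest share of these lists. Of 17, only ZNF488, a factor of oligodendrocyte development, had a region (5.88%, 1.05 to 27.0). Its folds were 5.33, 4.34, 6.35, 3.87 and 4.68 (1a, 1c, 2a, 2b and 2c in turn), with a lowest percentile of 3.21. No peak in any library was found at 13 of the 17, although 14 had a strict CpG island. These 13 include ZNF423 (fat cell and cerebellar development), ZNF683 (Hobit, of tissue-resident T cells), ZNF750 (epidermis), ZNF469 (cornea), ZNF804A and ZNF804B, ZNF503, ZNF462, and ZNF385B, ZNF385C and ZNF385D. Their relative ZNF385A, listed with the RNA-binding members, had a region in all 5 libraries with folds from 5.23 to 8.32. ZNF521 had a peak in 2 libraries, and ZNF703 and ZNF292 each in 1. The lists were drawn up with earlier results of these data known, and expression was not measured, so nothing in the lists separates silent from active promoters.

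The silencing machinery that KRAB proteins recruit was set beside them from a list of 23 genes that are not ZNF genes. A region was present at 16 of them (69.6%, 49.1 to 84.4), in all 5 libraries at 9. At TRIM28, the corepressor that KRAB binds, the highest fold of a promoter peak in each library was 7.53, 10.5, 10.3, 7.89 and 9.73 (1a, 1c, 2a, 2b and 2c in turn). SETDB1, the histone H3 lysine methyltransferase of this pathway, had peaks in 1a, 1c and 2b only. All 23 had a strict CpG island, where 45.4% of genes had a region. Among other zinc finger families of the same chromosomes named by symbol, 27 of 37 ZBTB genes had a region, 8 of 14 ZSCAN genes and 3 of 7 ZKSCAN genes.

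By position, 77 members lay in 12 neighbouring groups, runs of at least 4 members with at most 250 kb between successive starts. A region was present at 39 of these 77 (50.6%, 39.7 to 61.5) and at 75 of the 173 other members (43.4%, 36.2 to 50.8). On distal chromosome 7 (chr7:148766733-149194908) 6 of 8 members had a region in all 5 libraries: ZNF786, ZNF425, ZNF398, ZNF282, ZNF212 and ZNF746. The others, ZNF783 and ZNF777, had a peak in 1 and in 2 libraries. ZNF282 had nearly the same fold in each library (6.54, 6.63, 6.70, 6.66 and 6.18), while ZNF746 ran from 4.44 in 2c to 9.10 in 1a.

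At the end of chromosome 8 (chr8:145946292-146176274) 5 of 6 members had a region in all 5 libraries. These were ZNF7, ZNF251, ZNF250 (folds from 6.18 to 11.7), ZNF517 (5.86 to 12.4) and ZNF34 (4.86 to 6.31), while ZNF16 had peaks in 1a and 2b only. On chromosome 10 (chr10:43932289-44144329) all 4 members, ZNF487, ZNF239, ZNF485 and ZNF32, had a region, but only ZNF32 in all 5 libraries. On chromosome 12 the group of 7 at 133494892 to 133791418 held the shared region of ZNF10 and ZNF891 and that of ZNF140, and ZNF605 and ZNF268 had no peak. On chromosome 16 (chr16:30389427-30798526) 5 of 9 had a region, ZNF48, ZNF768 and ZNF764 in all 5 libraries. ZNF768 had folds of 13.4 and 13.0 in the 2 libraries of the first replicate and of 5.33, 5.58 and 5.93 in those of the second, which do not overlap. That difference was not tested, and it was picked out after the values were seen. The folds of the first replicate also lay above those of the second at ZNF7 and ZNF48, while those of ZNF764 overlapped.

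Other groups held fewer regions. On chromosome 3 (chr3:44473197-44778575) 1 of 7 members had a region, ZNF445, and 6 of the 7 had a strict CpG island. On proximal chromosome 7 (chr7:63459227-64467062) 3 of 10 had a region (ZNF107, ZNF138 and ZNF273) and 6 had no peak in any library; 3 of the 10 had a strict CpG island, ZNF680, ZNF727 and ZNF736, and none of those 3 had a region. ZNF107 had folds of 8.90, 6.30, 4.33, 6.33 and 7.56 (1a, 1c, 2a, 2b and 2c in turn). The genes of this group are related tandem copies, and ZNF705A, ZNF705B, ZNF705D and ZNF705G, which had no peak, are closely similar to one another. How reads that map to several copies were treated is not given in the sources used here, which leaves their values uncertain.

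The remaining groups were mixed. On chromosome 1 (chr1:247108849-247495169) ZNF670 had a region in all 5 libraries (folds from 5.31 to 7.78), ZNF669 and ZNF496 had one in 3, and ZNF124 had no peak. At the tip of chromosome 4 ZNF595 and ZNF721 had a region in all 5 libraries, and ZNF732 and ZNF141, which lie near them, had no peak. ZNF595 ran from 3.66 in 2c to 6.73 in 2b, and ZNF721 from 4.30 in 2c to 10.6 in 1a. Their lowest percentiles were 4.12 and 7.38. At the end of chromosome 5 ZNF354B and ZNF354A had a region, the latter with no peak in 1c, while their relative ZNF354C and ZNF454 had none in any library. On chromosome 10 (chr10:38065454-38439221) ZNF25 had folds of 5.17 in 1a and 8.99 to 9.74 in the others, ZNF33A had 3.88 to 9.74, and ZNF37A had no peak. On chromosome 16 (chr16:3162561-3493504) ZNF213, ZNF174 and ZNF263 had a region, and ZNF205 and ZNF597 had no peak.

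Over whole chromosomes the share of members with a region was lowest on chromosome 15 (1 of 7, ZNF280D) and chromosome 3 (4 of 19). All genes there stood at 37.5% and 31.9%. It was highest on chromosome 1, with 15 of 20 (75%), beside 38.7% of all genes there. Next below chromosome 1 were chromosome 11 with 4 of 6 (all genes 33.7%), chromosome 14 with 2 of 3 (27.9%) and chromosome 10 with 10 of 16 (31.0%). On chromosome 1 the 5 without a region were ZNF124, ZNF362, ZNF648, ZNF683 and ZNF695. Among members with a strict island, 15 of 19 on chromosome 1 had a region, beside 54.7% of all such genes there, and 4 of 17 on chromosome 3, beside 40.2%. Chromosome 7 had the most members, 19 of 35 with a region (54.3%), beside 40.1% of all genes there. On chromosome 16 the members lay below all genes there, with 13 of 30 (43.3%) beside 48.1%. With a strict island the values on chromosome 16 were 13 of 29 members and 58.8% of all genes. There was no member on chromosome 13 or 21. The chromosome number of K562 is abnormal, and the part of copy number in these counts was not tested.

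**Figure D4:**
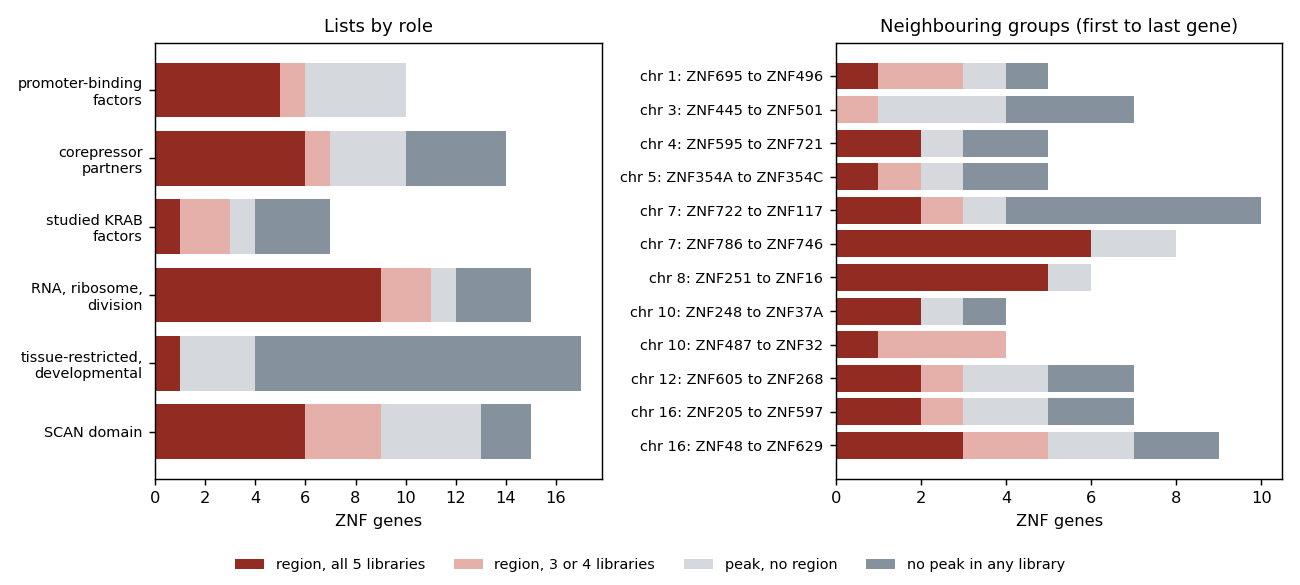
Number of ZNF genes (horizontal axis) in 6 lists by role (left) and in the 12 neighbouring groups (right), divided by whether a gene had a region in all 5 libraries, a region in 3 or 4, a peak without a region, or no peak. The tissue-restricted list has 13 of 17 genes with no peak; the chromosome 7 group from ZNF786 to ZNF746, the chromosome 8 group and the chromosome 10 group from ZNF487 to ZNF32 have none.

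Some members share a promoter with a gene on the other strand. A protein-coding start site on the other strand, upstream and within 1 kb, was present at 35 members, and 23 of these had a region (65.7%, 49.2 to 79.2), against 91 of 215 members without one (42.3%, 35.9 to 49.0). The same shares over all genes were 61.4% and 30.4%. Of the 130 distinct member regions, 20 lay within 1 kb of a start site of another gene as well (15.4%), beside 16.5% of all promoter regions. Partners included PHGDH (serine synthesis) with ZNF697, MRPL50 (mitochondrial ribosome) with ZNF189, UIMC1 (DNA repair) with ZNF346, VPS9D1 with ZNF276, DOCK4 with ZNF277, USB1 with ZNF319, NPW with ZNF598 and CSAD with ZNF740. At such regions the signal cannot be assigned to either gene. Over members whose start sites lay more than 1 kb from those of any other protein-coding gene, 90 of 207 had a region (43.5%, 36.9 to 50.3), beside 29.9% of all genes so placed.

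Protein domains were also set beside the regions. A KRAB A box pattern was found in the translated coding sequence of 111 members, of which 53 had a region (47.7%, 38.7 to 57.0), and not in that of 139, of which 61 had one (43.9%, 35.9 to 52.2). The pattern misses diverged boxes. By the number of C2H2 fingers, a region was present at 24 of 48 members with 0 to 3 fingers (50%), at 50 of 99 with 4 to 9 (50.5%) and at 40 of 103 with 10 or more (38.8%, 30 to 48.5). The intervals of the KRAB classes overlap, as do those of the finger classes.

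The 114 members had 130 distinct regions: 97 members had 1 region, 16 had 2 and ZNF394 had 3. Of the 130, 83 were present in all 5 libraries (63.8%), beside 58.8% of the 6848 regions at any protein-coding promoter. A start site of the member lay inside 90 of them (69.2%), beside 70.1% of all promoter regions. By annotation 88 touched a UTR exon, 7 a coding exon, 13 lay in an intron and 22 upstream. Of all 6848 promoter regions 4200 touched a UTR exon, 911 a coding exon, 723 lay in an intron and 1014 upstream. Their median width was 215 bp, as for all promoter regions, and their median GC content was 70.2% against 71.1%. The median over regions of the mean percentile of fold enrichment was 50.4 for the members and 56.4 for all promoter regions.

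A canonical G4 motif had a lower share in member regions than in promoter regions as a whole. It was present in 29 of 130 member regions (22.3%, 16 to 30.2) and in 2556 of 6848 regions at any protein-coding promoter (37.3%, 36.2 to 38.5), of equal median width. The chromosome 19 ZNF regions held it in 26 of 83 cases (31.3%, 22.4 to 41.9). Of the member regions in all 5 libraries 22 of 83 held it (26.5%, 18.2 to 36.9), and of those in 3 or 4 libraries 7 of 47 (14.9%, 7.41 to 27.7). These intervals overlap, and the regions in all 5 libraries were wider, with a median of 256 bp against 137 bp. Regions of members with the KRAB pattern held it in 7 of 57 cases (12.3%, 6.08 to 23.2), and those of the other members in 22 of 73 (30.1%, 20.8 to 41.4). The intervals of these 2 classes overlap as well. Regions of the KRAB members were narrower (median 207 bp against 231 bp) and had a lower median GC content (67.8% against 71.7%). The G runs lay on the strand of the gene in 19 regions and on the other strand in 12, with both in some. These shares depend on how the motif is defined. With loops of up to 12 bases 45.4% of member regions held one (all promoter regions 53.4%), and with runs of 2 or more G 94.6% did (93.8%).

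The start itself was read in a shorter window. In a window from 250 bases before to 50 after the start, 204 of the 250 members matched a promoter of the RefSeq table (GRCh38.p14). Of these, 35 held a G4 motif (17.2%), close to the 38 of 216 matched ZNF genes of chromosome 19 (17.6%). The share over all matched genes was 30.7%. Taken from GRCh37 at the start of the canonical transcript, which gives a window for all 250 members and for 19794 genes in all, 1 for each distinct symbol, 46 of 250 members held one (18.4%, 14.1 to 23.7), beside 33.9% of all protein-coding genes. It was present at 20 of 114 members with a region (17.5%) and at 26 of 136 without (19.1%). The GC box, GGGCGG on either strand, had the widest gap between these 2 groups of the 6 motifs searched; its letters can lie within those of a G4 motif. It was present at 87 of 114 members with a region (76.3%, 67.7 to 83.2) and at 67 of 136 without one (49.3%, 41.0 to 57.6), beside 61.3% of all genes. The GC box is made of G and C alone, and the median promoter GC of these 2 groups was 68.9% and 63.0%. The part of GC content in this gap was not tested.

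The ETS motif CCGGAAG, also searched on both strands and bound by factors such as GABPA and ELK proteins, was present in the windows of 82 members (32.8%, 27.3 to 38.8), beside 14.0% of all protein-coding genes. In the RefSeq windows it was present at 72 of 204 members (35.3%) and 14.4% of all matched genes. The ZNF genes of chromosome 19 had it more often there, at 98 of 216 (45.4%, 38.9 to 52.0). In the GRCh37 windows the ETS motif stood at 43 of 114 members with a region (37.7%, 29.4 to 46.9). It stood at 39 of 136 without one (28.7%, 21.7 to 36.8), and these intervals overlap. The NRF1 motif was present at 12.4% of members and 12.2% of all genes, and the YY1 motif, AAGATGGCG, at 2.80% and 2.83%. The motif bound by ZNF143 and THAP11 was present at 5 members (2.00%), beside 0.369% of all genes. A match describes letters in the window and is not evidence of binding.

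**Figure D5:**
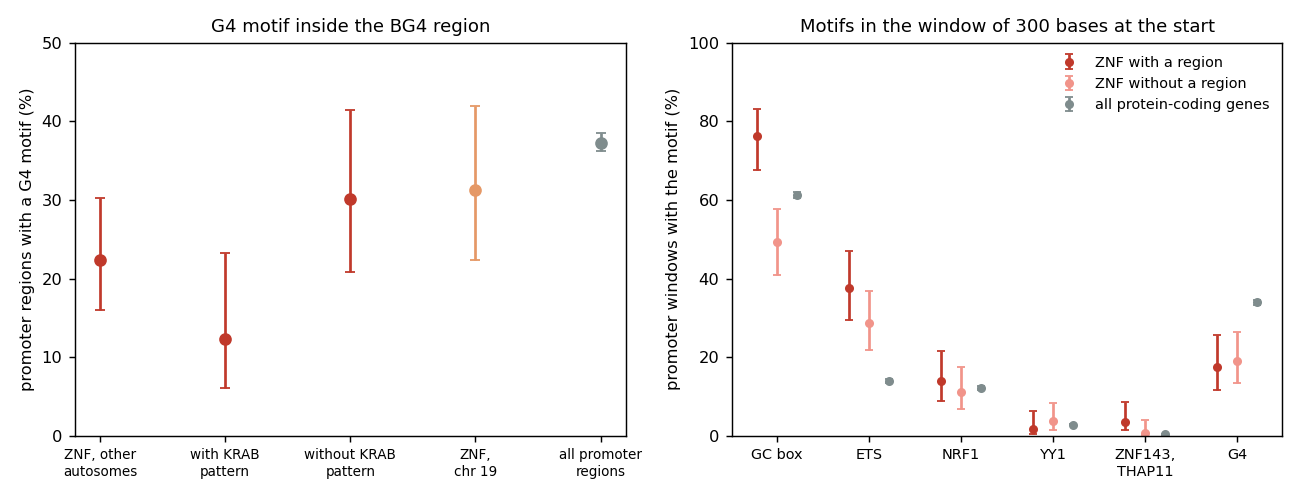
Left, share of promoter BG4 regions that hold a canonical G4 motif (vertical axis, %) for the ZNF genes of the other autosomes, those with and without the KRAB pattern, the chromosome 19 ZNF genes and all promoter regions; points are shares and bars 95% Wilson intervals, from 12.3% for the KRAB members to 37.3% for all. Right, share of windows of 300 bases at the start (vertical axis, %) with each motif (horizontal axis), for members with a region, members without one and all protein-coding genes; the GC box stands at 76.3%, 49.3% and 61.3%.

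Of the 80 members with no peak in any library, 61 had a strict CpG island and 19 did not. At least 1 G4 motif lay within 1 kb of a start site at 50 of the 80. Over all 250 members 225 had such an island (90.0%) and 172 such a motif (68.8%), beside 75.5% and 73.4% of all genes. Among the 6 without a peak that had an island and the most motifs, 4 exceeded 68.9%, the median GC of members with a region. These were ZNF516 and ZNF618 (82.6% each), ZNF467 (73.3%) and ZNF469 (72.3%). ZNF423 (68.5%) and ZNF710 (57.3%) did not. The 6 were chosen for their number of motifs, a choice that favours a high GC content. Motifs were counted in the windows of all start sites, and GC content was read at the main start site alone. Over all 80 members without a peak GC content ran from 37.1% to 85.0%. ZNF516 is a corepressor partner and ZNF423 a developmental factor, and ZNF469 is in the developmental list as well. Around these promoters the letters of the motif were present and no peak was called in any of the 5 lists.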

How the data were processed

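BG4 peaks of 5 K562 libraries were called with MACS2 on hg19, one list per library, per the submitters' processing notes; the aligner, control and settings are not given in the sources used here. The deposited lists give for each peak a score, a fold enrichment (a ratio to local background), a −log10 p and a −log10 q. The authors' fold enrichment and −log10 p were used as deposited. Percentiles of fold were taken within each list. Folds of different libraries were also set side by side without scaling, although their medians over all peaks differed (6.03 in 2c to 6.78 in 1a). The deposited high-confidence list gives positions alone, and its rule is not stated. Peak names in lists 2a and 2c carry each other's letter, and the sample labels were followed.

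Overlaps, CpG islands, motifs and GC content were computed from the GRCh37 genome and GENCODE 44 mapped to it, with numpy 2.4.6, scipy 1.17.1 and pysam 0.24.0, after a check on simulated data; figures used matplotlib 3.10.9. A gene on both X and Y was counted once. Shares carry 95% Wilson intervals, for counting error only. Genes were named by role, by neighbouring group, as the 20 strongest, the 4 weakest and the 6 without a peak, or for a shared region. The members and lists were chosen with earlier results of these data known. No protein table was used, so domain patterns, which had been planned only with one, were searched in translated coding sequence, and the GRCh37 promoter windows were added because the RefSeq table held a window for too few of all genes; both choices were made after seeing the data. Sequences printed are reference sequence.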

Additional observations from a re-analysis of the deposited data

Results flagged for a closer look

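Fold enrichment over the 5 libraries was examined at 22 members for a library far from the other 4, and 2 were marked; about 1 in 20 such groups is marked by chance. At ZNF395, library 2c stood apart with a fold of 11.1, where the other 4 libraries lay between 8.40 and 8.73. At ZNF143, library 2c stood apart in the other direction with a fold of 6.50, where the other 4 lay between 8.19 and 8.40. Folds come from separate lists, and no cause was tested.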

How the results depend on the processing

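The number of members with a region (114 of 250) stayed within 1.5 times under every alternative run, from 79 when only peaks at or above 10 in −log10 p were kept to 144 with at least 2 of 5 libraries, and the members' share stayed above that of all genes in each. Leaving out 1 library at a time gave 100 (without 1a or 2c) to 109. The members with a region in all 5 libraries fell from 81 to 39 under the same peak threshold (15.6%, all genes 12.4%). Among members with a strict CpG island the share with a region moved from 48.9% to 34.2% with those peaks (all genes 32.6%), to 41.8% with lists of equal length (39.8%) and to 61.8% with at least 2 of 5 libraries (52.6%), and was 46.9% with a looser island (40.4%); with the last 2 the members' interval lay above the share of all genes. It ran from 43.1% to 46.7% when 1 library was left out. The difference between replicates in the share of members with a peak (first minus second) was -0.733 percentage points; it ran from -6.13 (without 1a) to 4.67 (without 1c), was 2.80 without 2c, and reached -5.07 with lists of equal length (exact permutation p 0.100, the smallest possible). The share of member regions with a G4 motif moved from 22.3% to 45.4% with loops of 1 to 12 and to 94.6% with runs of 2 or more G. No paired analysis was possible because 1 group alone (BG4 libraries of K562) was analysed here; the input and HaCaT libraries that carry the same numbers were not. Depth is unknown, so an absent peak does not show an absent structure.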
